A study of Salix matsudana with 3 samples.

Results

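miR164 and miR6445 are plant microRNAs whose known targets are messengers of NAC transcription factors. The entries described here are those whose name carries either family number, and they were 5 of 205 listed small RNA entries and 18 of 981 listed pairs of a miRNA and a cleavage site. Of the entries, 4 belong to miR164 and 1 to miR6445. The plants were 30-day-old Salix matsudana, the Chinese willow, and RNA came from roots and stems together. One small RNA library was made from plants kept for 2 days in 100 mmol per litre NaCl, and 1 from untreated plants. One degradome library, in which the ends of cut messengers are sequenced, was made from the RNA of both conditions mixed. No untreated library at 2 days was used here, so salt and the time that passed cannot be told apart. The labelled tissue was not checked against marker genes, because messenger levels were not measured. In RNA of whole organs, fewer cells that make a miRNA and less of it per cell cannot be told apart.

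NAC factors are a large plant-specific family of transcription factors. In Arabidopsis, miR164 cuts messengers of NAC genes that set organ boundaries, lateral root formation and leaf ageing, and loss of this control changes leaf margins and floral organs. The guide strand sits in an ARGONAUTE protein and directs a cut in the messenger across from the middle of the miRNA. The other strand of the hairpin, the 3p arm in the case of miR164, is usually degraded. miR6445 is known from poplar, a relative of willow, and is a less widely conserved miRNA.

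The mature sequences are shown because the levels, the arm comparison and the cleavage sites below rest on them. They are given 5′ to 3′ as deposited DNA letters, with bases 2 to 8, the seed, in capitals.
nta-miR164a: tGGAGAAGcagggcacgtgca
sly-miR164a-3p_2ss10GT12TC: cATGTGCCtttcttccccatc
vun-miR164_1ss6AT: tGGAGTAGgggagcacgtgca
cme-miR164b_1ss17AG: tGGAGAGGcagggcacgtgct
ptc-miR6445a: tTCATTCCtcttcctaaaatgg
The miR164 entries were all 21 nt long, like 53.2% of the 205 entries, and ptc-miR6445a was 22 nt long, like 17.1% of them. Each of the 5 had a seed of its own, shared with 0 other entries of the table. The longest stretch that ptc-miR6445a had in common with an entry outside these families was 9 bases, with ptc-miR166n. For nta-miR164a the longest was 6 bases. No precursor sequence or position was listed for any of the 5, while 84 entries of the table had one.

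Against nta-miR164a, cme-miR164b was identical at 19 of 21 bases, with the substitutions A7G and A21T, counted from 1 at the 5′ end. The entry vun-miR164 was identical at 17 of 21 bases, with A6T, C9G, A10G and G12A. Both thus differ from nta-miR164a inside the seed. The suffixes of the names code differences from the miRNA each entry is named after. Read as position, first base and base found, they gave A17G for cme-miR164b, A6T for vun-miR164, and G10T and T12C for sly-miR164a-3p. The deposited sequences hold the second base at all 4 positions. Over all entries, this reading held for 66 of 77 substitutions coded in names.

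nta-miR164a and sly-miR164a-3p were listed under the same precursor index, and are taken here as 2 arms of 1 hairpin. No precursor sequence was listed for them, so whether all their reads came from the same hairpin was not tested. Set against each other with 2 unpaired bases at both 3′ ends, 15 of 19 facing positions were Watson-Crick pairs, 2 were G and T wobbles and 2 were mismatches. The substituted bases of the 3p arm lay at paired positions. T at position 10 faced A at position 10 of nta-miR164a, and C at position 12 faced G at position 8. With the first bases of the name, position 10 would be a mismatch and position 12 a wobble. The 2 arms as sequenced in willow therefore pair more closely than nta-miR164a would with the unsubstituted 3p arm.

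Both arms of the miR164 hairpin, were more abundant in the salt library, and ptc-miR6445a was less abundant. Levels are reads per 1000000 of the reads listed in a library, written RPM. The listed reads were 734026 in the salt and 4622984 in the untreated library, a 6.30-fold difference in depth, so that 1 read was worth 1.36 and 0.216 RPM. With 1 library per condition, no difference has a replicate check and no test between conditions was possible. The 95% exact intervals cover counting error only, and not differences between plants or libraries. PCR copies of a molecule are counted as separate reads, so the intervals may be too narrow even for counting error.

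nta-miR164a, the guide strand, had 6694 reads in the salt and 18074 in the untreated library. That was 9119.6 RPM (95% interval 8903 to 9339.7) in the salt library and 3909.6 RPM (3853 to 3967) in the untreated one. It was the 15th most abundant entry with salt and the 19th without. The share of listed reads was 2.33-fold higher in the salt library (2.27 to 2.40).

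sly-miR164a-3p, the passenger strand, had 1396 reads in the salt and 815 in the untreated library. It held more reads with salt although that library was far shallower. Its level was 1902 RPM in the salt and 176 RPM in the untreated library, a 10.8-fold higher share (9.89 to 11.8). Its place among the 205 entries was the 30th with salt and the 53rd without.

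ptc-miR6445a had 800 reads in the salt and 6930 in the untreated library. The level was 1089.9 RPM (1016 to 1168) with salt and 1499 RPM (1464 to 1535) without. Its share was 1.38-fold lower in the salt library (1.28 to 1.48). The interval covers counting error only, and the change was within 2-fold.

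The remaining entries were at the limit of detection. vun-miR164 had 2 reads in the salt and 1 in the untreated library. cme-miR164b had 0 reads with salt and 0.5 estimated reads without. A count of 0 allows up to 3 reads, or 4.09 RPM in the salt and 0.649 RPM in the untreated library, so no ratio is given for these 2 entries. The family sum of miR164 was 11024 RPM, or 1.10% of reads, with salt and 4086 RPM, or 0.409%, without, a 2.70-fold higher share (2.63 to 2.77). Nearly all of it came from nta-miR164a and sly-miR164a-3p. Among 76 numbered families miR164 was the 12th most abundant in the salt and the 15th in the untreated library, and miR6445 was the 29th and the 24th.

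**Figure D1:**
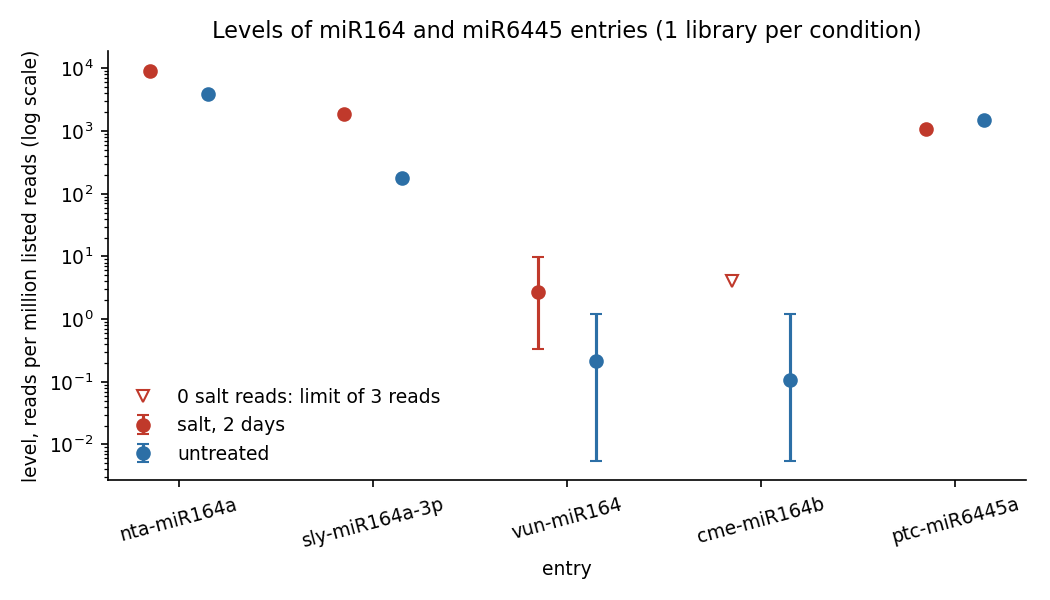
Level of each entry in RPM of listed reads, on a log axis, in the salt library (red) and the untreated library (blue), with 95% exact counting intervals and 1 library per condition. The arms nta-miR164a and sly-miR164a-3p lie higher with salt, ptc-miR6445a lies lower, and vun-miR164 and cme-miR164b rest on at most 2 reads; the open triangle marks the limit of 3 reads where no read was seen.

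Comparisons used log2(RPM + 1) and were limited to entries that averaged 10 RPM or more over both libraries. A ratio of 2-fold or more was called higher, and one of 0.5-fold or less lower. Of the miR164 and miR6445 entries 3 of 5 reached the minimum, and 2 of these 3 were called higher and 0 lower. Among all 115 entries at the minimum 37 were called higher, which is 32.2%, and 15 lower, which is 13%. Both higher entries were listed under the same precursor index, and a higher call was frequent in this table. The log2 ratio of sly-miR164a-3p was 3.42, the 9th highest of 115. That of nta-miR164a was 1.22, the 35th, and that of ptc-miR6445a was -0.46, the 87th. The median over all 115 was 0.33. Summed, miR164 stood 9th of 43 families by log2 ratio and miR6445 stood 32nd.

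**Figure D2:**
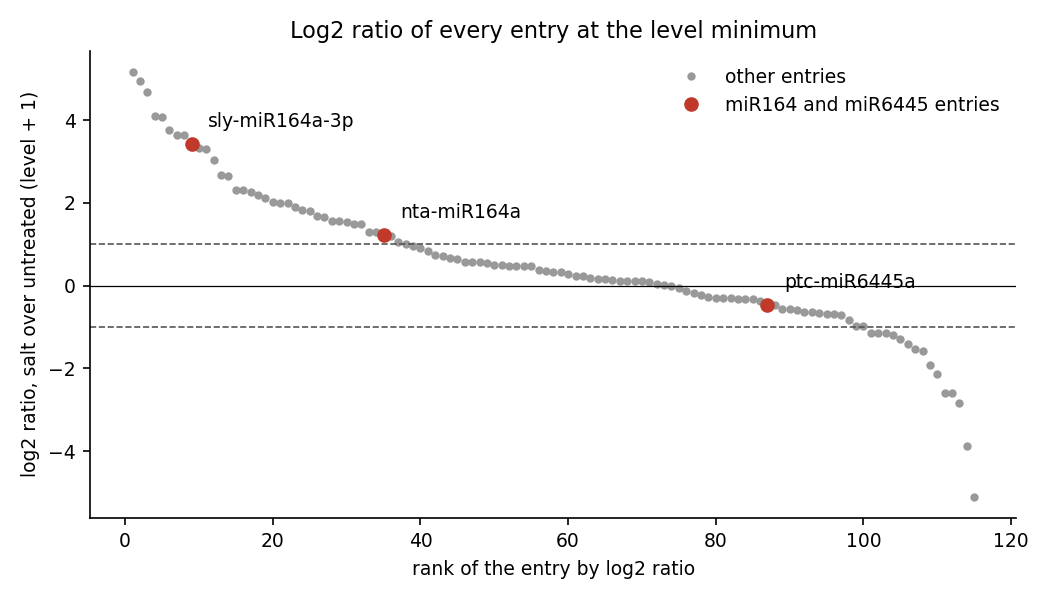
Log2 ratio of salt over untreated on level + 1 for each of the 115 entries at the level minimum, ranked from highest to lowest, with dashed lines at 2-fold. sly-miR164a-3p lies near the top at 3.42, nta-miR164a just above the 2-fold line at 1.22, and ptc-miR6445a below 0 at -0.46.

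These ratios depend on what each library is scaled to, since a few entries hold most reads. Over 6 scalings the log2 ratio of sly-miR164a-3p ran from 2.45 to 3.64 and stayed past 2-fold, as did 20% of the 115 entries in the higher direction. The ratio of nta-miR164a ran from 0.25 to 1.44. It was under 2-fold when the 5 most abundant entries were left out of the total (0.25), when miR159 was left out (0.84) and with the median ratio (0.88), and it was 1.05 with identical sequences counted once. ptc-miR6445a stayed below 0, from -1.44 with the 5 most abundant left out, past 2-fold, to -0.24 without entries that may be rRNA or tRNA fragments. The split of all called entries moved as well, to 23 higher and 41 lower with the 5 most abundant left out, 32 and 24 with miR159 left out, and 32 and 21 with the median ratio. It went the other way, to 41 higher and 11 lower, without possible rRNA or tRNA fragments, and was 36 and 18 with identical sequences counted once. Compared with scaling to the listed total, these choices moved the median log2 ratio of the 115 entries by -0.96 for the 5 most abundant, -0.37 for miR159, -0.33 with the median ratio, -0.17 with identical sequences counted once and 0.22 without possible fragments.

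**Figure D3:**
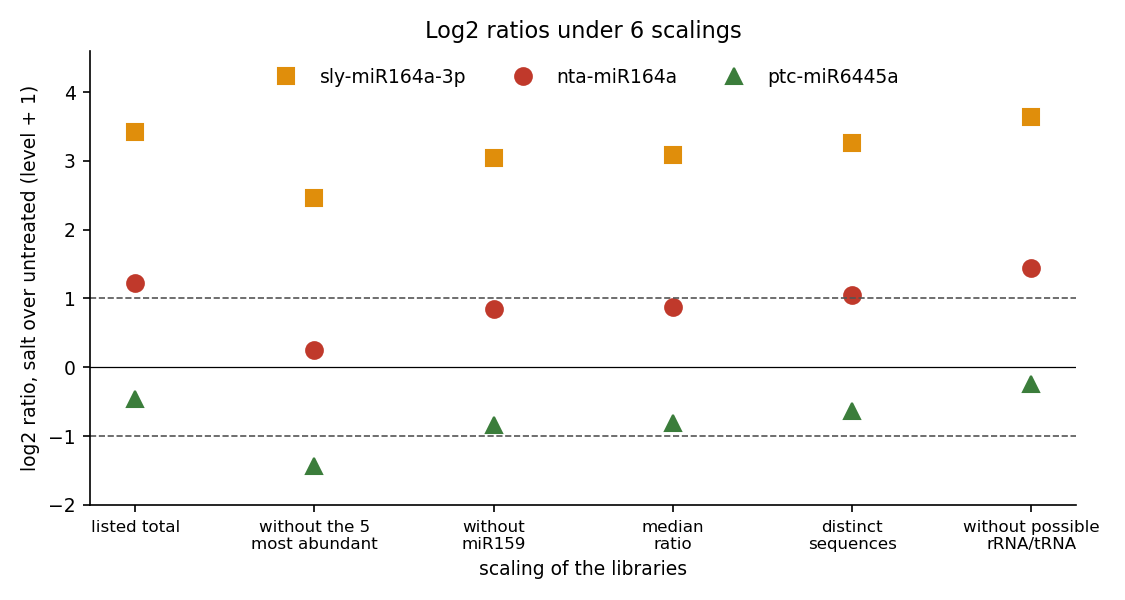
Log2 ratio of salt over untreated on level + 1 for the 3 entries at the level minimum, under 6 ways of scaling the libraries, with dashed lines at 2-fold. The order sly-miR164a-3p, nta-miR164a, ptc-miR6445a is the same in each column, because each scaling moves the 3 entries by nearly the same amount. nta-miR164a lies under 2-fold in 3 of 6 columns and ptc-miR6445a past 2-fold in 1 of 6.

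Ratios between entries of the same library need no scaling. The 3p arm of the miR164 hairpin had 20.9% as many reads as the 5p arm in the salt library and 4.51% in the untreated library, a 4.62-fold higher arm ratio (95% exact interval 4.22 to 5.07). The 5p arm remained the more abundant strand in both libraries. Whether all reads of both arms came from the same hairpin was not tested. In 26 hairpins both entries reached the level minimum. The ratio of the less to the more abundant entry was at least 2-fold higher with salt in 9 of these, or 34.6%, and at least 2-fold lower in 5, or 19.2%, with a median of 1.34-fold. The change of the miR164 hairpin ranked 3 among the 26. Above it were the predicted PC-5p-3490_1413 hairpin at 22.9-fold and the hairpin of ptc-miR166a at 11.4-fold.

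**Figure D4:**
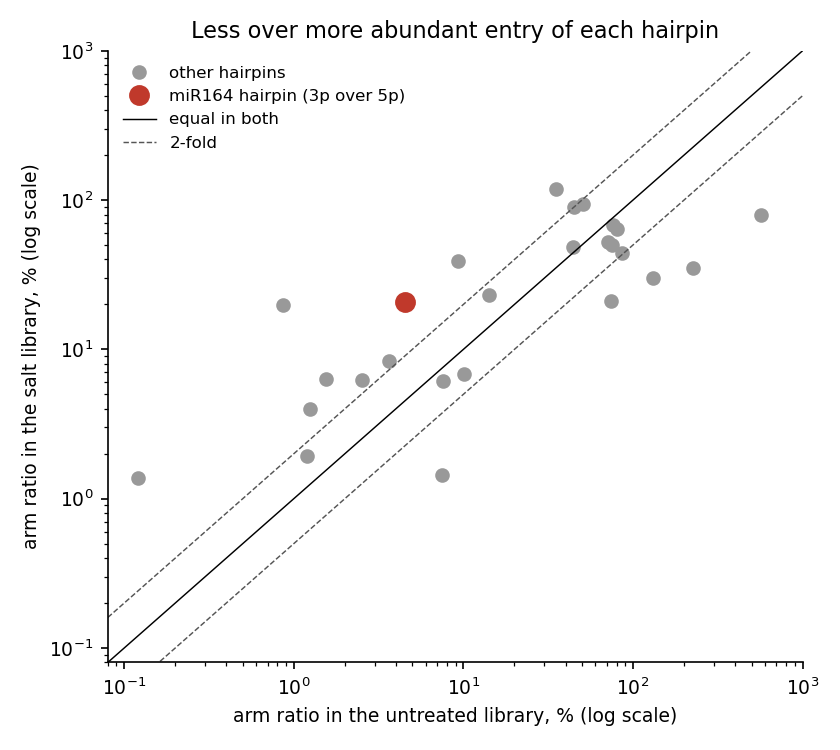
Reads of the less abundant entry as a percentage of those of the more abundant entry, in the salt library (vertical) against the untreated library (horizontal), for 26 hairpins on log axes; the solid line marks equal ratios and the dashed lines 2-fold. The miR164 hairpin (red) lies above the upper 2-fold line, at 20.9% with salt and 4.51% without.

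The ratio between the 2 families also differed between the libraries. ptc-miR6445a had 0.120 reads for each read of nta-miR164a in the salt library and 0.383 in the untreated library, a 3.21-fold lower ratio with salt (2.97 to 3.47). The direction rests on 1 library per condition but holds under any scaling, because both entries are divided by the same total. This comparison was chosen after seeing the data, and ratios between other families were not computed. Over the 115 tested entries the log2 ratios of salt over untreated ran from -5.10 to 5.17.

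By the absolute difference in log2 ratio over the 2 libraries, the entries most like nta-miR164a were ptc-miR172g-3p at 1.21, ptc-miR399e at 1.28 and ptc-miR472b at 1.31. They regulate APETALA2-like factors, the phosphate gene PHO2 and NB-LRR resistance genes, as background. Those most like ptc-miR6445a were ptc-miR166a at -0.48, ptc-miR171j_R+1 at -0.37 and hpe-miR162a_R+1 at -0.56, which act on HD-ZIP III factors, scarecrow-like GRAS factors and DICER-LIKE1. Other conserved miRNAs of leaf and organ development (miR159, miR165, miR166, miR171, miR319 and miR396) gave 19 tested entries of 25. Of these 4 were called higher and 5 lower, with a median log2 ratio of -0.33, beside 0.33 over all tested entries. With the 5 most abundant left out of the total, 3 were called higher and 12 lower, with a median of -1.31 beside -0.63. nta-miR164a, at 1.22, lay above that list's median, and ptc-miR6445a, at -0.46, lay below it. With the 5 most abundant left out they were at 0.25 and -1.44. A change of total shifts all entries by nearly the same amount, so the second scaling is no separate check of this order.

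In the degradome, both families had cleavage sites in messengers annotated as NAC factors. The library mixed both conditions, so no site can be assigned to salt or control. A pair joins 1 miRNA entry to 1 cleavage position on a transcript, which carried a gene symbol but no identifier. The alignment score penalises mismatches, and runs from 0 for the best match to 4. miR164 had 10 pairs, 4 of them with a NAC symbol, which are 2 positions listed under 2 entries; nta-miR164a alone had 8 pairs, 2 of them with a NAC symbol. miR6445 had 8 pairs, 3 with a NAC symbol, and 4 when NTL9, a NAC factor whose symbol the search words missed, is included. The 963 pairs of all other entries held 0 with a NAC symbol and 0 with an NTL symbol. Of these 963 pairs, 90, or 9.35%, had no symbol. NAC transcripts without a symbol or under other symbols would be missed by this search. No interval is given for these counts, because pairs share sites and reads and are not independent draws.

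nta-miR164a was paired with NAC100, whose Arabidopsis namesake is a known miR164 target, at 2 positions. Position 1000 had 56 reads and position 1006 had 19 reads, both at an alignment score of 2.5. The aligned stretches were 989 to 1009 and 995 to 1015, so both the stretch and the cut are offset by 6 bases. Whether these are 2 transcripts or 1 was not determined, since no transcript identifiers were listed. cme-miR164b was listed for the same 2 positions with the same reads, at a worse score of 3.5. That entry was thus listed with cleavage sites although it had 0 reads with salt and 0.5 estimated reads without.

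The other 6 pairs of nta-miR164a were with UXS genes, which encode UDP-xylose synthases of cell wall sugar metabolism. UXS6 was listed 4 times, and UXS3 and UXS5 1 time each, all with 5 reads and the worst listed score of 4. Their cut positions ran from 382 to 530. Other entries of the table had 0 pairs with a UXS symbol. vun-miR164 and sly-miR164a-3p had no pair in the table, so the passenger strand that was higher with salt came with no listed site.

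ptc-miR6445a had its best alignments, with a score of 1, in NAC089 and NTL9. NAC089 and NTL9 belong, in Arabidopsis, to the NAC factors that are tethered to membranes until released by stress. The cut in NAC089 at position 134 had 32 reads and that in NTL9 at position 184 had 15 reads. Scores of at most 1 were given to 42 of the 981 pairs, or 4.28%. A second NAC089 pair at position 132 had 34 reads at a score of 2.5, and another at position 138 had 1 read at a score of 1.5. The 4 pairs without a symbol had 34 reads at position 130, and 1 read each at positions 144, 146 and 1605.

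Several of these pairs show signs of listing the same reads more than 1 time. The table also gave a signal headed TPB, and its value per read was at most 52.7. In all 18 pairs of both families it was 52.7 divided by a whole number, within 0.001 of that number, as in 80.5% of all pairs. The divisor was 6 for each of the 6 UXS pairs, at 8.78 per read, and 2 for both pairs with 34 reads, at 26.3 per read. It was 3 for the 4 pairs with 1 read, and 3 of those, at positions 138, 144 and 146, had the same score. It was 1 for both NAC100 sites, the NAC089 site at position 134 and the NTL9 site. The number of like pairs thus matched the divisor for UXS and for the 34 reads, as it would for reads divided over equal stretches. The header does not say how the signal was made.

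With reads divided by these numbers, nta-miR164a had 80 reads in all. NAC100 took 75 of them, or 93.8%, and the UXS genes together 5, or 6.25%. ptc-miR6445a had 82.3 reads, of which NAC089 took 49.3, or 59.9%, NTL9 15, or 18.2%, and the transcripts without a symbol 18, or 21.9%. Counted as listed instead, the UXS pairs had 30 reads beside 75 for NAC100. For both miRNAs, then, most divided reads lay in transcripts with a NAC factor symbol. Among all 981 pairs, 71 had an undivided signal, with a median of 3 and at most 78 reads. At least 56 reads were found in 5 of these, among them the NAC100 site at position 1000 under both of its miRNA names. By reads as listed, that site ranked 136 among all 981 pairs, where the lowest of the 10 highest pairs had 1137.

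**Figure D5:**
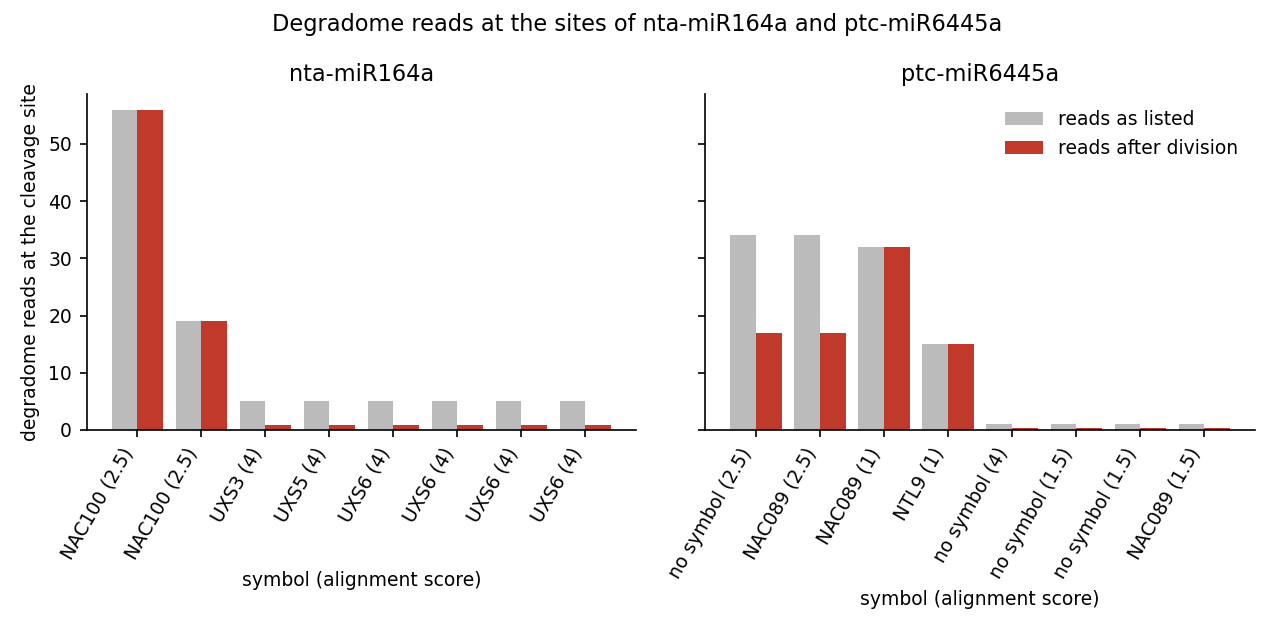
Degradome reads at each site of nta-miR164a (left) and ptc-miR6445a (right) as listed (grey) and after division by the divisor of the TPB signal (red), with the symbol and, in brackets, the alignment score. NAC100 holds 56 and 19 undivided reads, NAC089 and NTL9 hold 32 and 15, and the 6 UXS sites shrink to under 1 read each.

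ARGONAUTE is known to cut the messenger across from the bases 10 and 11 of the miRNA. With the end of the aligned stretch taken as facing base 1 of the miRNA, the cut position faced base 10 in all 10 miR164 pairs and in 7 of 8 miR6445 pairs. The exception, at base 11, was the pair at position 1605 with a score of 4, 1 read and an aligned stretch of 23 bases. In all, 863 of 981 pairs, or 88.0%, faced base 10, 62 faced base 9 and 56 faced base 11, and no other base was listed. Since the table holds only these 3 positions, the facing base is no independent sign of cleavage. The sites of ptc-miR6445a other than the exception lay between positions 130 and 184 of their transcripts, whereas those of nta-miR164a in NAC100 lay at 1000 and 1006. Where these positions fall within the coding sequence was not analysed here.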

How the data were processed

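The authors deposited estimated counts for each mature sequence, headed raw in the file; 68 of 205 entries held parts of reads. Library columns name 0 and 2 days and were matched to samples through the titles. The degradome table gave deposited raw counts per cleavage position, an alignment score per the file headers, and a deposited signal headed TPB, not spelled out. Small RNA libraries followed the Illumina protocol, per the labels. For trimming, mapping and calling, the tools are not given in the sources used here.

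Counts were divided by the listed total and multiplied by 1000000 (RPM); full library depths were not used here. Ratio intervals are exact conditional binomial ones after rounding, and arm ratio intervals exact conditional odds ratios (scipy 1.17.1, Python 3.11.15). Interval code was tested on simulated data. All entries of both families and all their degradome symbols are named, with the 3 nearest entries by log2 ratio. NAC symbols were found by fixed words, and NTL9 was added after the symbols were seen. The members and lists were chosen with earlier results of these data known. The arm ratios, the ratio between families and the division of degradome reads were chosen after seeing the data. Alternatives covered scaling, pseudocounts, level minimum, fold threshold, alignment score, reads per site and counting of identical sites.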

Additional observations from a re-analysis of the deposited data

How the results depend on the processing

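Differences rest on 1 library per condition, and depth limits the salt library most. No paired analysis was possible because each condition has 1 library. The log2 ratio of the miR164 sum was 1.43. It was 0.46 without the 5 most abundant entries, 1.05 without miR159, 1.09 with the median ratio, 1.26 with identical sequences counted once, 1.65 without possible rRNA or tRNA fragments, and 1.22 for nta-miR164a alone. In the same order of scalings, miR6445 gave -1.44, -0.84, -0.80, -0.63 and -0.24, beside -0.46. Pseudocounts of 0.1 and 5 moved neither sum beyond its counting interval. Of the miR164 and miR6445 entries, 2 of 3 were past 2-fold, both higher, but 1 without miR159, 1 with the median ratio and 1 at a 4-fold threshold. Without the 5 most abundant entries they were 1 higher, sly-miR164a-3p, and 1 lower, ptc-miR6445a, and with no level minimum 3 of 5 were higher, among them vun-miR164 on 2 reads with salt and 1 without. Among all 115 entries at the minimum 52 were past 2-fold, 37 higher and 15 lower, and 26 past 4-fold, 20 higher and 6 lower. With no level minimum 84 of 205 were past 2-fold, 50 higher and 34 lower. Of the 115, higher and lower entries were 32 and 24 without miR159 and 32 and 21 with the median ratio. Without the 5 most abundant entries they were 23 and 41. The 4 miR164 pairs with a NAC symbol became 2 at a score of at most 3, 0 at a score of at most 2, 2 with each position counted once and 2 without entries under 3 reads, the last chosen after seeing the data. The 3 miR6445 pairs stayed between 2 and 4. The log2 change of the miR6445 to miR164 ratio was -1.68, and -1.89 with family sums; adding 0.5 reads left the arm ratio at 2.21. Hairpins with a 2-fold changed arm ratio were 14 of 26, 24 of 42 with at least 1 read per arm and library, and 13 of 24 at a minimum of 50 RPM. Beyond the fewer or added entries each alternative brings, the cause was not tested.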
